A study of Mus musculus with 12 samples.

Results

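The genes described here encode the pathway that displays peptides on MHC class I molecules: the class I heavy chains of the mouse H2 complex, their light chain, the proteasome subunits and transporters that supply peptides, and the regulators of their transcription. They are 31 genes, taken from the deposited table by symbol, of 55891 genes in all. Each of the 31 symbols matched 1 row. Transcripts were measured by mRNA sequencing of scraped ileal mucosa of 12 mice at baseline; the ileum is the final stretch of small bowel, and a scraping holds epithelium with some of the tissue under it. The genotype labels are Erbb3-FF (6 mice) and ERBB3-dIE (6 mice), and the receptor encoded by Erbb3 is a neuregulin receptor of the ErbB family. What the genotype names stand for, the promoter that drives any recombinase, and the strain, age and sex of the mice were stated in no source used here. There were 2 litters. Litter A comprised Erbb3-FF mice 3 to 6 and ERBB3-dIE mice 4 to 6, and litter B comprised Erbb3-FF mice 1 and 2 and ERBB3-dIE mice 1 to 3. Each mouse gave 1 library, so the p-values below measure the spread between these mice.

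Class I molecules are made by nearly all nucleated cells. Peptides cut by the proteasome in the cytosol are carried into the endoplasmic reticulum by the transporter of Tap1 and Tap2, trimmed, and loaded onto a heavy chain paired with beta-2 microglobulin, and the complex is read at the cell surface by CD8 T cells and by receptors of natural killer cells. Interferon-gamma raises many of these genes, in part through the transactivator Nlrc5, and exchanges the catalytic proteasome subunits for the immunoproteasome subunits Psmb8, Psmb9 and Psmb10. In the small intestine the epithelium carries both classical and nonclassical class I molecules and lies in contact with intraepithelial lymphocytes, many of which carry CD8.

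Promoter sequences of 4 genes that rose, and of B2m and Tap1 beside them, are shown because class I genes share short elements next to their starts. RefSeq windows (build GRCm38.p6, 250 bases before to 50 after the annotated start) were found for 24 of the 31 genes, and H2-Q1, H2-T10, H2-T24, Tap2, Tapbpl, Nlrc5 and Cd1d1 had none in that table. The 250 bases before the start are printed for H2-Q7, H2-Q6, H2-Q4 and B2m, and for Psmb9 and Tap1, which start back to back, the 225 bases between their starts. Capitals mark matches, on either strand, to GAAANNGAA (a form of the core of the interferon-stimulated response element), TTCNNNGAA (the gamma-activated site) or CCAAT (which reads ATTGG on the other strand). Other forms of that core were not searched.
H2-Q7 (chr17:35438905-35439154, plus strand): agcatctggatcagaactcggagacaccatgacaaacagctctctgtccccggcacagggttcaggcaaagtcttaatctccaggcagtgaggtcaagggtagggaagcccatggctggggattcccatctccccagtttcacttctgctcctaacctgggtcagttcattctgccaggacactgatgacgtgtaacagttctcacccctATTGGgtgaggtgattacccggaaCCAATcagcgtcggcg
H2-Q6 (chr17:35424600-35424849, plus strand): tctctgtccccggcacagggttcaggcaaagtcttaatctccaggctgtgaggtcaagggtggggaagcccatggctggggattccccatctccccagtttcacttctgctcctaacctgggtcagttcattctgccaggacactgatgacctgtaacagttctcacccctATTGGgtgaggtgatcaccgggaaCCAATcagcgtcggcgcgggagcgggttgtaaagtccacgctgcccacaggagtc
H2-Q4 (chr17:35379367-35379616, plus strand): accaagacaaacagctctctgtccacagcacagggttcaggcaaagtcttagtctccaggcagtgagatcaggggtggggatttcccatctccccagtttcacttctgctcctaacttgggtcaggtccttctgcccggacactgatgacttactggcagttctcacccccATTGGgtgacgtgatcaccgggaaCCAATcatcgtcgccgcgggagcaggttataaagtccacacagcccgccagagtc
B2m (chr2:122147437-122147686, plus strand): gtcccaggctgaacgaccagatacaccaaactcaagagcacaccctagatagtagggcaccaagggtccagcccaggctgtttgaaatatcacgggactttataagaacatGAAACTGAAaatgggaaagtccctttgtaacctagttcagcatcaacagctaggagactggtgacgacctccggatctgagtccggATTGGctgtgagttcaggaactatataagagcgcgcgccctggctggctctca
between Psmb9 and Tap1 (chr17:34187331-34187555, plus strand, the strand of Tap1): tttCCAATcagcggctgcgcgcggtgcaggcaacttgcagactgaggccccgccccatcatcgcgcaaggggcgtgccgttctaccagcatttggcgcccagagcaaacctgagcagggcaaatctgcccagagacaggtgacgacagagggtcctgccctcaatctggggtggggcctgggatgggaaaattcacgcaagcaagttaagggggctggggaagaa

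The windows of H2-Q7 and H2-Q6 were 97.2% identical over an aligned overlap of 211 positions. That of H2-Q4 was 83.3% identical to that of H2-Q6 and 84.1% identical to that of H2-Q7. The annotated start of H2-Q7 lies closer to the CCAAT pair than that of H2-Q6, with the nearer match 16 bases before the start in H2-Q7 and 55 bases before it in H2-Q6 and in H2-Q4. GAAANNGAA was matched in 6 of 26 windows of these genes (23.1%), against 8.56% of all 32851 windows in the table. The 6 genes were B2m, H2-T22, H2-T23, Psme1, Erap1, where 2 matches overlapped each other, and Irf2. The windows of H2-Q7, H2-Q6, H2-Q4, H2-K1, H2-D1 and H2-Q10 all hold the letters agtttcacttctgc. GAAANNGAA does not match these letters on either strand, so they stand in lower case. The lack of a match in these genes therefore does not show that they lack an interferon-responsive element, which was not tested. TTCNNNGAA was matched in 3 windows (11.5%, against 8.3% of all), those of H2-M3, Psmb8 and Irf2. CCAAT was matched in 15 windows (57.7%, against 37.4%). No match of one motif overlapped a match of another in these windows. A match is a description of the letters, and the absence of one says only that these letters are not in the window.

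Levels are given as TPM, the transcript abundance unit of the table, which is scaled by gene length and by the library total, so that levels of different genes can be compared. Depth per library is unknown, because every library sums to the same total. A gene was tested if 6 or more libraries reached 1 TPM for it, which held for 12605 genes and for 28 of the 31 class I genes. Differences are on the scale log2(TPM + 0.5), ERBB3-dIE minus Erbb3-FF with litter as a term, with the standard error (SE) and the adjusted p from limma. A gene passed the test at an adjusted p under 0.05. Over all genes 209 were higher and 467 lower, and 220 and 825 after the libraries were rescaled without mitochondrial and ribosomal sequence. Between 12344 and 13364 genes reached 1 TPM per library. All 12 markers of enterocytes were detected and passed the filter, and Pmp22, the gene named in the series title, lay at 548 to 790 TPM in the Erbb3-FF group and at 135 to 250 TPM in the other. Erbb3 itself overlapped (87.3 to 151 and 104 to 206 TPM), and a gene-level value does not check a deletion of part of a gene. Erbb3-FF mice 5 and 6 held 10.2% and 10.8% of ribosomal sequence, against at most 1.62% elsewhere.

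Class I genes were higher in ERBB3-dIE where they passed the test at all. Of the 28 tested, 5 rose and 0 fell: the nonclassical heavy chain genes H2-Q7, H2-Q6 and H2-Q4, the transactivator Nlrc5 and the immunoproteasome subunit Psmb9. Over all tested genes 1.66% rose and 3.7% fell. The log2 difference was positive for 23 of the 28, with a median of 0.38, against a median of -0.0007 over all tested genes. At an unadjusted p under 0.05, 11 of the 28 were higher and 1, Fcgrt, was lower, against 8.71% and 13.1% of all tested genes. Expression in a bulk scraping cannot tell more cells of a type from more RNA per cell.

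**Figure D1:**
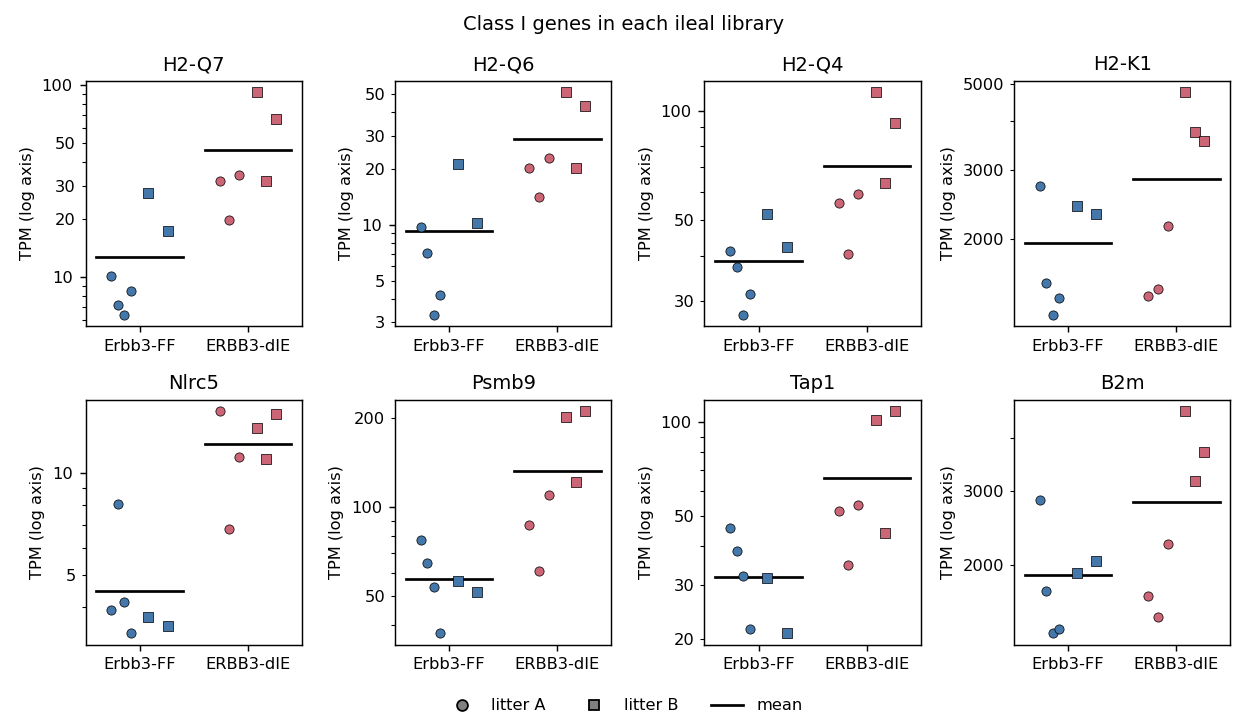
Level of 8 class I genes in each library, as TPM on a log axis, for Erbb3-FF and ERBB3-dIE mice. Circles are litter A, squares litter B and the bar is the group mean. H2-Q7 sits higher in ERBB3-dIE without overlap in both litters. Nlrc5 is higher on average in both, but its genotypes overlap in litter A. The highest values of H2-K1 and B2m are the ERBB3-dIE mice of litter B, but their genotype difference was not shown to differ between litters.

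The classical heavy chain genes H2-K1 and H2-D1 had the highest levels among the heavy chains. H2-K1 lay at 1279 (lowest), 1934 (median) and 2733 TPM (highest) in Erbb3-FF and at 1430, 2858 and 4752 TPM in ERBB3-dIE. The groups overlapped, and the 3 highest values, 3562 to 4752 TPM, were the ERBB3-dIE mice of litter B. The genotype difference was 0.31 (SE 0.22, 95% interval -0.17 to 0.78, adjusted p = 0.448). H2-D1 lay at 388, 555 and 678 TPM in Erbb3-FF and at 456, 729 and 1161 TPM in ERBB3-dIE, a difference of 0.35 (SE 0.17, adjusted p = 0.243). The 14 heavy chain genes together summed to 3237 ± 961 TPM in the Erbb3-FF mice and to 4658 ± 2084 TPM in the ERBB3-dIE mice (SD, n = 6 each). H2-K1 made up 60.1% ± 1.4 of that sum in Erbb3-FF and 60.5% ± 2.8 in ERBB3-dIE.

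The Q genes held the largest changes. H2-Q7, which encodes a Qa-2 antigen, lay at 6.35, 9.31 and 27.3 TPM (lowest, median and highest) in Erbb3-FF and at 19.7, 32.8 and 92.0 TPM in ERBB3-dIE. The 2 highest Erbb3-FF values, 27.3 and 17.4 TPM, were the 2 mice of litter B, and within each litter the genotypes did not overlap. In litter A Erbb3-FF mice lay at 6.35 to 10.2 TPM and ERBB3-dIE mice at 19.7 to 33.8 TPM, and in litter B at 17.4 to 27.3 and 31.7 to 92.0 TPM. The difference was 1.60 (SE 0.26, adjusted p = 0.0077). H2-Q6, a close relative that also encodes a Qa-2 antigen, lay at 3.29, 8.41 and 21.3 TPM in Erbb3-FF and at 14.1, 21.6 and 51.3 TPM in ERBB3-dIE. Its groups overlapped by Erbb3-FF mouse 1 of litter B alone, whose 21.3 TPM exceeded ERBB3-dIE mice 2, 4 and 5, and the other Erbb3-FF mice lay at or below 10.2 TPM. H2-Q6 rose by 1.49 (SE 0.31, adjusted p = 0.0226). Together H2-Q6 and H2-Q7 took 0.651% ± 0.299 of the heavy chain sum in Erbb3-FF (0.441% to 1.22%) and 1.60% ± 0.43 in ERBB3-dIE (0.893% to 2.04%), a share that overlapped between the groups through litter B.

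H2-Q4 lay at 27.5, 39.3 and 52.1 TPM in Erbb3-FF and at 40.4, 61.3 and 112 TPM in ERBB3-dIE. The groups overlapped by ERBB3-dIE mouse 5, the lowest of its group, and the 3 highest Erbb3-FF mice. H2-Q4 rose by 0.71 (SE 0.17, adjusted p = 0.0340). The other Q genes did not pass the test. H2-Q1 differed by 0.27 (adjusted p = 0.449), H2-Q2, with 268 ± 98 TPM, by 0.11 (adjusted p = 0.812), and H2-Q10, which is mostly known as a secreted molecule of the liver, by -0.22 (adjusted p = 0.639).

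Q genes resemble each other, and the values of near copies are uncertain. Of the 75-base windows of their GENCODE vM21 transcripts (build GRCm38, not the build of the table), 17.9% for H2-Q6 and 16.95% for H2-Q7 also occurred in another gene. H2-Q6 shared most with H2-Q7 (9.80%), and H2-Q7 shared most with H2-Q10 (8.88%) and then with H2-Q5 (5.32%). For H2-Q4 the share was 7.02%, for H2-K1 3.10% and for H2-D1 5.40%. H2-Q5, which was not among the 31 genes, lay at 251 TPM in ERBB3-dIE mouse 1, 48.0 TPM in Erbb3-FF mouse 1 and 43.3 TPM in ERBB3-dIE mouse 2, all of litter B, and at 2.60 to 9.53 TPM in the other libraries. ERBB3-dIE mouse 1 had the highest H2-Q7 value as well, whereas ERBB3-dIE mouse 3, with 7.81 TPM of H2-Q5, had the second highest H2-Q7 value (66.8 TPM). Reads given to one of these genes in place of another were not tested. Whether all mice carried the same H2 haplotype is stated in no source used here and was not tested either, and the TPM of polymorphic H2 genes and their differences carry that limit.

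T and M region genes did not pass the test by genotype. H2-T23, which encodes the Qa-1 molecule read by the CD94 and NKG2 receptors, lay at 138, 219 and 343 TPM in Erbb3-FF and at 123, 352 and 612 TPM in ERBB3-dIE. The lowest and the highest values of all 12 libraries were both ERBB3-dIE mice, and the difference was 0.29 (adjusted p = 0.600). H2-T3, which encodes the thymus leukemia antigen, a ligand of the CD8 alpha homodimer of intraepithelial lymphocytes, had nearly equal means of 109 ± 34 and 109 ± 47 TPM and a difference of -0.20 (adjusted p = 0.543). H2-T22 differed by 0.44 (adjusted p = 0.390) and H2-T10 by 0.59 (adjusted p = 0.399), and these 2 ligands of some gamma-delta T cells shared 18.5% and 16.05% of their windows with other genes, mostly with each other. H2-M3, which presents formylated peptides, lay at 3.20 ± 1.25 and 5.58 ± 2.03 TPM, a difference of 0.63 (adjusted p = 0.128). H2-T24 averaged 0.899 and 1.27 TPM and did not reach the minimum level for testing.

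Beta-2 microglobulin, the light chain of all these molecules, was as abundant as H2-K1. B2m lay at 1371, 1817 and 2855 TPM in Erbb3-FF and at 1496, 2704 and 4657 TPM in ERBB3-dIE. The groups overlapped, but ERBB3-dIE mice 1, 2 and 3 of litter B, at 4657, 3164 and 3720 TPM, were above every Erbb3-FF mouse. The genotype difference was 0.40 (SE 0.23, 95% interval -0.11 to 0.91, adjusted p = 0.352). The ratio of B2m to the summed heavy chains was 0.589 ± 0.066 and 0.612 ± 0.039.

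None of the 4 peptide loading genes passed the test, and Tap1 had the largest difference among them. Tap1 lay at 20.9, 31.7 and 45.5 TPM in Erbb3-FF and at 34.8, 53.0 and 109 TPM in ERBB3-dIE. Its 2 highest values were ERBB3-dIE mice 1 and 3 of litter B, and the difference was 0.93 (SE 0.30, adjusted p = 0.0982). Tap2, the other chain of the transporter, differed by 0.36 (adjusted p = 0.381). Tapasin (Tapbp), which bridges the transporter and the heavy chain, differed by -0.01 (95% interval -0.39 to 0.37, adjusted p = 0.985), and its relative Tapbpl, a peptide editor, by 0.36 (adjusted p = 0.255). The difference between these genes was not tested.

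Of the 3 immunoproteasome genes Psmb9 passed the test, and Psmb8 and Psmb10 did not. Psmb9 lay at 37.5, 55.2 and 77.8 TPM in Erbb3-FF and at 61.1, 116 and 212 TPM in ERBB3-dIE. The overlap came from ERBB3-dIE mouse 5 of litter A. In litter B all 3 ERBB3-dIE mice, at 122, 202 and 212 TPM, were above both Erbb3-FF mice at 51.8 and 56.5 TPM. Psmb9 rose by 1.02 (SE 0.26, adjusted p = 0.0473), the call nearest the threshold among the 5. Psmb8 lay at 66.4, 92.6 and 164 TPM in Erbb3-FF and at 97.8, 198 and 321 TPM in ERBB3-dIE, a difference of 0.94 (SE 0.28, adjusted p = 0.0789). Psmb10 lay at 169, 182 and 224 TPM and at 187, 274 and 419 TPM, a difference of 0.53 (SE 0.16, adjusted p = 0.0807). The proteasome activator genes Psme1 and Psme2 had differences of 0.44 (adjusted p = 0.120) and 0.46 (adjusted p = 0.103). Psme2 shared 22.9% of its windows with the copy Psme2b.

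Each immunoproteasome subunit replaces a constitutive one, and the ratio within a library does not depend on the library total. The constitutive subunits were close between the genotypes, with log2 differences of 0.06 for Psmb5, 0.11 for Psmb6 and 0.09 for Psmb7 (adjusted p = 0.794, 0.600 and 0.672). The ratio of Psmb8 to Psmb5 was 1.86 ± 0.46 in Erbb3-FF (1.36 to 2.61) and 3.66 ± 1.25 in ERBB3-dIE (1.84 to 5.04). Averaged over the litters the log2 ratio was higher by 0.99 (exact 2-sided permutation test within litters, p = 0.0114, adjusted over the 3 ratios 0.0171). The ratio of Psmb9 to Psmb6 was 0.430 ± 0.083 and 0.880 ± 0.312, higher by 1.01 (exact p = 0.0114, adjusted 0.0171). The ratio of Psmb10 to Psmb7 was 2.57 ± 0.27 and 3.72 ± 1.07, higher by 0.51 (exact p = 0.0314, adjusted 0.0314). Of the relabellings within litters there were 350, and the smallest p they allow is 0.00286.

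The ratios were also compared within each litter; the difference between litters was not tested for them. Within litter A alone the log2 differences were 0.37, 0.46 and 0.11 for the ratios of Psmb8, Psmb9 and Psmb10 (exact permutation tests, adjusted p = 0.343, 0.343 and 0.457). Within litter B alone they were 1.61, 1.55 and 0.91, each with an adjusted p of 0.1, the smallest that 2 against 3 mice allow. All 3 ERBB3-dIE mice of litter B were above both Erbb3-FF mice of that litter in each ratio. Leaving out ERBB3-dIE mouse 1, 2 or 3 raised the adjusted p of each ratio above 0.05, and for the ratio of Psmb10 leaving out Erbb3-FF mouse 1, 2 or 4 or ERBB3-dIE mouse 6 did the same.

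**Figure D2:**
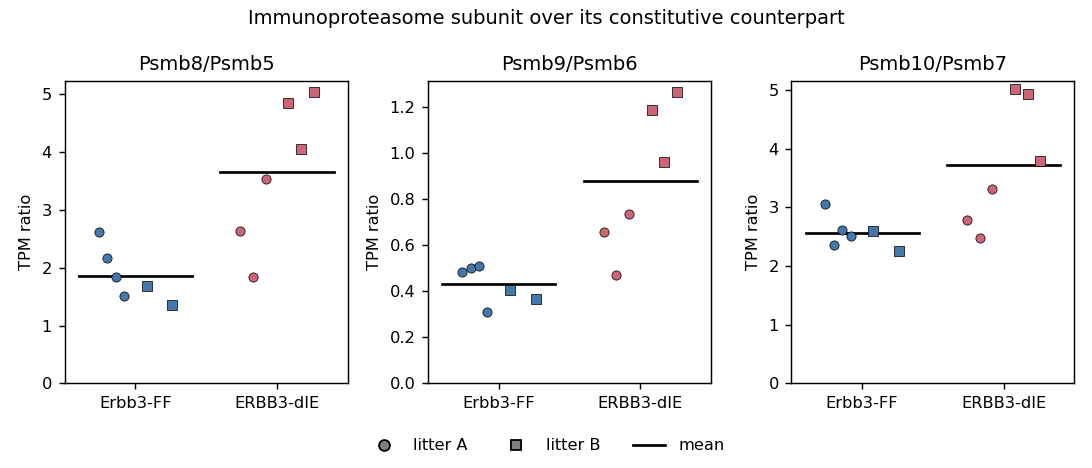
Ratio of each immunoproteasome subunit to the constitutive subunit it replaces, from TPM, in each library. Circles are litter A, squares litter B and the bar is the group mean. The ERBB3-dIE mice of litter B have the 3 highest ratios in each panel, while litter A overlaps between genotypes.

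Nlrc5, the transactivator of class I promoters, had the lowest level of the 5 genes that rose. It lay at 3.35, 3.84 and 8.06 TPM in Erbb3-FF and at 6.82, 12.4 and 15.2 TPM in ERBB3-dIE. The groups overlapped only because Erbb3-FF mouse 4, at 8.06 TPM, lay above ERBB3-dIE mouse 5, at 6.82 TPM. The other 5 Erbb3-FF mice lay at 3.35 to 4.14 TPM. Nlrc5 rose by 1.36 (SE 0.24, adjusted p = 0.0109), and its litter difference was 0.01 (adjusted p = 0.976). Irf2, a repressor and activator of interferon-responsive promoters, differed by 0.01 (95% interval -0.35 to 0.36, adjusted p = 0.989).

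Trimming enzymes and class I-like molecules did not pass the test. Erap1, the aminopeptidase of the endoplasmic reticulum, differed by 0.06 (adjusted p = 0.871) and Lnpep, an aminopeptidase of endosomes, by -0.14 (adjusted p = 0.524). Fcgrt, which encodes the heavy chain of the neonatal Fc receptor, differed by -0.29 (adjusted p = 0.190), at 38.4 ± 7.5 and 31.3 ± 2.4 TPM. Cd1d1, which presents lipids to natural killer T cells, averaged 1.39 and 0.881 TPM, and Mr1, which presents vitamin B metabolites, averaged 0.447 and 0.254 TPM; neither reached the minimum level for testing.

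**Figure D3:**
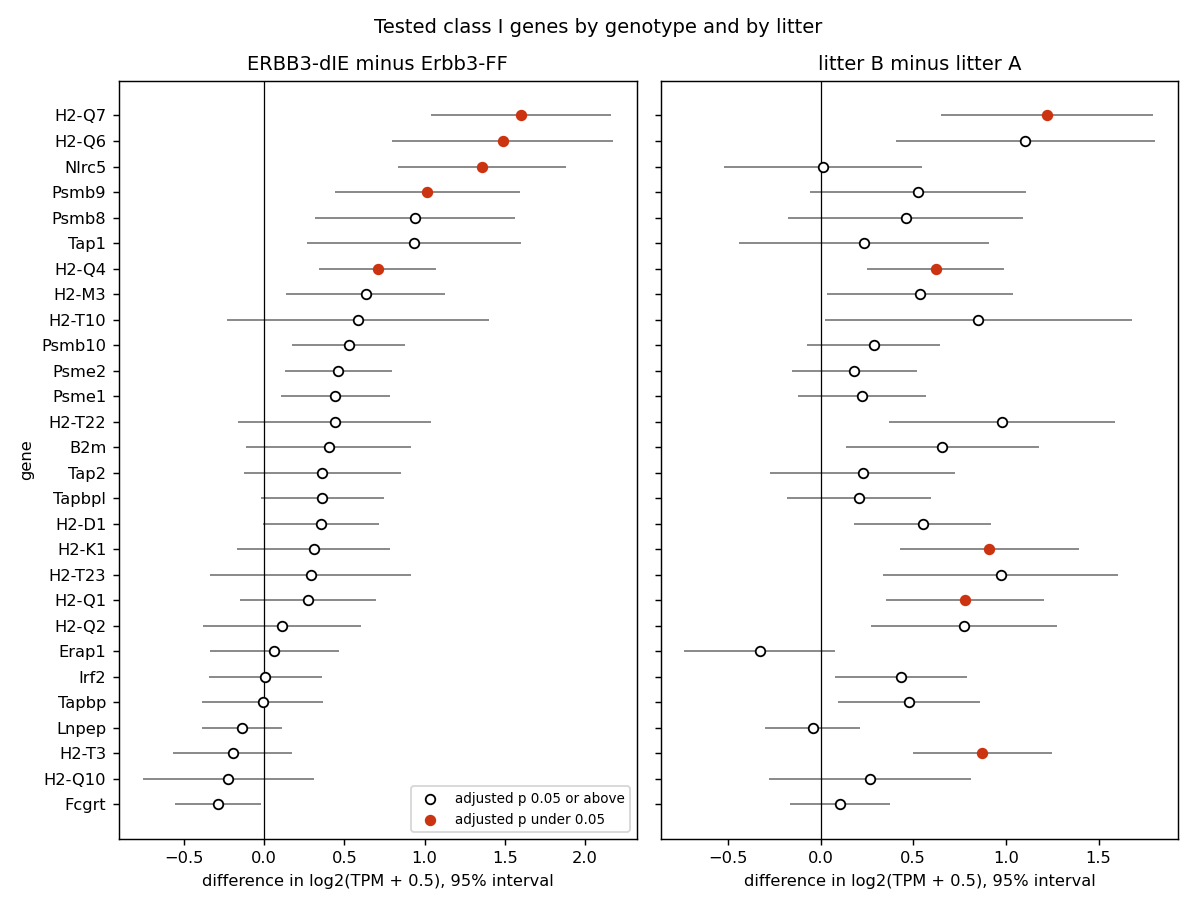
Difference in log2(TPM + 0.5) of the 28 tested genes, by genotype on the left and by litter on the right, with 95% intervals, ordered by the genotype difference. Filled points passed the test. H2-Q7 and H2-Q4 are filled in both panels, Nlrc5, H2-Q6 and Psmb9 only on the left.

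In no class I gene were all 6 ERBB3-dIE mice above all 6 Erbb3-FF mice, against 1.02% of all tested genes. Within litter A 3 of the 28 genes (H2-Q6, H2-Q7 and H2-T10) were higher in ERBB3-dIE without overlap, near the background of 11.7% of all tested genes. Within litter B, with 2 mice against 3, 19 of the 28 were, against 8.73%. H2-Q7 alone was so in both litters, against 2.46% of all tested genes. The 9 tested genes that were not so in litter B were H2-Q6, H2-Q10, H2-T3, H2-T10, Tap2, Erap1, Fcgrt, Irf2 and Lnpep.

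By litter, 5 of the 28 genes were higher in litter B and 0 were lower, against 7.16% and 1.4% of all tested genes. They were H2-Q7 (1.22, adjusted p = 0.0258), H2-K1 (0.91, adjusted p = 0.0335), H2-T3 (0.87, adjusted p = 0.0212), H2-Q1 (0.78, adjusted p = 0.0369) and H2-Q4 (0.62, adjusted p = 0.0455). H2-T3 lay at 59.0, 77.4 and 128 TPM (lowest, median and highest) in the 7 mice of litter A and in litter B at 115 TPM in ERBB3-dIE mouse 3, 143 in mouse 2 and 181 in mouse 1, with 135 and 153 TPM in Erbb3-FF mice 1 and 2. Its litters overlapped by Erbb3-FF mouse 3 alone. H2-K1 lay at 1279, 1492 and 2733 TPM in litter A and at 2323, 3562 and 4752 TPM in litter B, with Erbb3-FF mouse 3 again the highest of litter A. No class I gene had litters without overlap, against 1.9% of all tested genes. The litter difference was positive in 26 of the 28, with a median of 0.50 against 0.05 over all genes. Rescaled without mitochondrial and ribosomal sequence these medians were 0.37 and -0.08, so relative to all genes the difference was nearly the same. Markers of cell types moved with litter too. Of 12 enterocyte markers 11 had positive litter differences (median 0.88, 5 passed), and of 7 tested smooth muscle markers 0 did (median -1.40, 1 passed as lower), with sums of 70.1 to 180 TPM in litter A and 50.4 to 97.0 TPM in litter B. With the smooth muscle markers as a covariate none of the 5 litter calls passed (adjusted p = 0.169 to 0.298). In that fit 0 of all tested genes passed by litter, so the loss is not particular to class I genes. In ERBB3-dIE mice alone 7 class I genes were higher in litter B, H2-K1, H2-Q1, H2-Q2, H2-T3, H2-T22, H2-T23 and B2m, and in Erbb3-FF mice alone, with 2 mice in litter B, 0 were. All tested genes gave 500 higher and 265 lower in ERBB3-dIE mice alone, but only 3 and 1 in Erbb3-FF mice alone. The 0 in Erbb3-FF mice is therefore not particular to class I genes. With both genotypes fitted together 902 of all genes were higher and 176 lower in litter B, but 447 and 323 with a median-of-ratios scaling and 421 and 287 after that rescaling.

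The genotype difference was not shown to differ between litters in any class I gene. In the interaction model 0 of the 28 passed, as did 0% of all tested genes, with the smallest adjusted p 0.360 for Tapbpl. At an unadjusted p under 0.05 there were 6 of the 28, Tapbpl, Psmb10, Psmb9, Psme1, H2-T23 and B2m, and 1174 of all 12605. The interaction term (litter B difference less litter A difference) had a median of 0.47 over the 28 genes and of -0.15 over all genes. For Psmb9 it was 1.11 (adjusted p = 0.462) and for B2m 0.93 (adjusted p = 0.517).

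The authors' deposited table gives their own test of the genotypes, whose design is not given in the sources used here. There, in the authors' deposited table, 16 of the 31 genes were higher in ERBB3-dIE at an adjusted p under 0.05 and 0 were lower, against 5.07% higher of the 15490 genes with an adjusted p. These were the 5 genes above and H2-K1, H2-D1, H2-Q1, H2-T22, H2-M3, B2m, Tap1, Psmb8, Psmb10, Psme1 and Psme2. In the authors' deposited table the log2 fold changes were 1.89 for H2-Q7, 1.74 for H2-Q6, 1.45 for Nlrc5, 1.11 for Psmb9 and 0.85 for H2-Q4.

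Other genes of the pathway were read from lists, to be set beside the 1.66% of all tested genes that rose and the 3.7% that fell. Of 19 further peptide loading and constitutive proteasome genes, among them the chaperones Calr and Canx, 0 rose and 0 fell, with a median difference of 0.09. The smallest p was that of Sec61b, a subunit of the translocation channel of the endoplasmic reticulum (0.35, adjusted p = 0.0605). Of 22 genes of class I transcription 0 rose and 2 fell: Jak2, a kinase of the interferon-gamma receptor, by 0.71 (adjusted p = 0.0057), and Ifngr1, a chain of that receptor, by 0.40 (adjusted p = 0.0296). Irf1, an activator of class I promoters, lay at 115 ± 14 and 175 ± 43 TPM, a difference of 0.55 (adjusted p = 0.0747). Of 23 tested interferon-gamma targets outside the class I pathway 10 rose and 0 fell, with a median of 1.22. The largest were Ubd, a ubiquitin-like modifier that sends proteins to the proteasome (3.62, adjusted p = 0.0108), and the GTPase genes Iigp1 (1.95, adjusted p = 0.0288), Tgtp2 (1.89, adjusted p = 0.0267) and Gbp6 (1.87, adjusted p = 0.0310). All 23 had positive differences. The sum of that list was 251 to 412 TPM in Erbb3-FF mice and 401 to 1714 TPM in ERBB3-dIE mice, with ERBB3-dIE mouse 5 below the highest Erbb3-FF mouse. These lists were drawn up with earlier results of these data known, so their direction is not independent evidence.

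Among 8 tested further class I and class I-like genes 0 passed by genotype (median 0.01), and the smallest p was that of H2-M2 (-0.75, adjusted p = 0.160). H2-Bl ranged from 9.36 to 378 TPM over the 12 libraries without following genotype (0.30, adjusted p = 0.885). H2-K2 and H2-M2 were higher in litter B, by 0.90 (adjusted p = 0.0258) and 1.29 (adjusted p = 0.0293), as were 7.16% of all tested genes. Of 5 tested receptors of class I molecules, Cd8a rose by 1.20 (adjusted p = 0.0380), from 4.49 ± 0.90 to 12.03 ± 5.80 TPM. Of 35 tested class II and other genes of the same chromosome region 2 rose and 0 fell, against 1.66% and 3.7% of all tested genes. The median of the 35 was 0.04. Notch4, an endothelial Notch receptor, rose by 1.97 (adjusted p = 0.0469), and Slc39a7, a zinc transporter, by 0.50 (adjusted p = 0.0382). The class II gene H2-Aa differed by 0.78 (adjusted p = 0.391), and H2-Ob, a class II gene known from B cells, by -2.44 (adjusted p = 0.0775).

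Markers of cell types moved with the genotypes as well, where 1.66% of all tested genes rose and 3.7% fell. Of 18 tested markers of T cells and intraepithelial lymphocytes 4 rose (Gzma, Ccl5, Cd7 and Cd8a) and 0 fell, with a median of 0.69. Their summed level was 138 to 253 TPM in Erbb3-FF mice and 220 to 773 TPM in ERBB3-dIE mice, and none of the markers in the table was at 0 in all libraries. The highest sums, 773, 601 and 538 TPM, were ERBB3-dIE mice 1, 3 and 6, and mice 1 and 3 also had the highest values of H2-Q7, Tap1 and Psmb9. Other class I genes did not follow these sums. ERBB3-dIE mouse 2, with the lowest sum of its group (220 TPM), had the second highest H2-K1 value (3752 TPM). The highest Nlrc5 value (15.2 TPM) was that of ERBB3-dIE mouse 4, with a sum of 403 TPM. With the mean log2 level of the T cell and intraepithelial lymphocyte markers as a covariate, H2-Q7 alone of the class I genes passed the test (0.95, adjusted p = 0.0229). Over all tested genes 56 were higher and 288 lower in that fit, against 209 and 467 without the covariate. The differences were then 1.17 for Nlrc5 (adjusted p = 0.0746), 0.68 for H2-Q6 (adjusted p = 0.0898), 0.56 for Psmb9 (adjusted p = 0.308) and 0.31 for H2-Q4 (adjusted p = 0.206).

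B cell markers were high in 3 libraries. Their sum was 566, 238 and 215 TPM in Erbb3-FF mice 1, 2 and 3 and 8.35 to 33.1 TPM in the other 9, and of 3 tested markers 0 passed (median -1.61). With the level of B cell markers as a covariate H2-Q6 (1.97, adjusted p = 0.0428) and H2-Q7 (1.88, adjusted p = 0.0399) passed. Over all tested genes 21 were higher and 28 lower in that fit, against 209 and 467 without the covariate. Without these 3 libraries, which leaves the genotype comparison to litter A, 0 class I genes passed, and over all tested genes only 14 were higher and 21 lower. H2-Q7 then differed by 1.86 (adjusted p = 0.0754) and Nlrc5 by 1.04 (adjusted p = 0.209). Of 12 enterocyte markers 6 fell and 0 rose, against 3.7% and 1.66% of all tested genes, with a median of -0.71. In litter B 5 of them were higher, against 7.16% of all tested genes. The sum of the 12 markers was 13409 to 30115 TPM in Erbb3-FF mice and 7160 to 22045 TPM in ERBB3-dIE mice. Of 7 tested smooth muscle markers Mylk fell, and the sums of ERBB3-dIE mice 4 and 5, 180 and 162 TPM, exceeded the 50.4 to 115 TPM of the other libraries. Without these 2 mice 1 class I gene passed, Nlrc5, and over all tested genes 43 were higher and 65 lower. Plasma cell (7 tested), macrophage and dendritic cell (10 tested) and endothelial markers (3 tested) had 0 past the threshold. T cell markers were higher in most ERBB3-dIE mice and B cell markers were high in 3 Erbb3-FF mice. Fits with these markers as covariates therefore cannot separate cell content from genotype. No fit held enterocyte markers as a covariate. The part of any of these cell types in the class I differences was not tested.

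**Figure D4:**
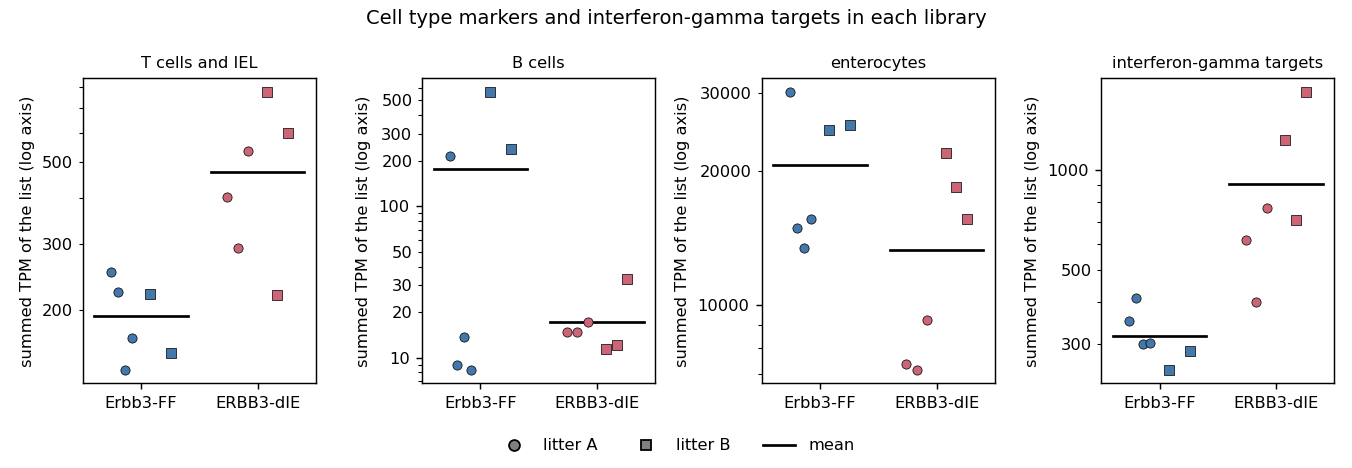
Summed TPM, on log axes, of the markers of T cells and intraepithelial lymphocytes (IEL), B cells and enterocytes and of the interferon-gamma targets in each library. Circles are litter A, squares litter B and the bar is the group mean. T cell markers and interferon-gamma targets sit higher in most ERBB3-dIE mice, and B cell markers are high in 3 Erbb3-FF mice.

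Leaving out each library in turn, H2-Q7 and Nlrc5 passed in all 12 fits, with adjusted p-values of 0.0028 to 0.0280 and 0.0042 to 0.0384. H2-Q6 was lost in 4 (without Erbb3-FF mouse 2 or 6 or ERBB3-dIE mouse 4 or 6), with adjusted p-values of 0.0520 to 0.0671. H2-Q4 was lost in 6 (without Erbb3-FF mouse 1, 2 or 6 or ERBB3-dIE mouse 3, 4 or 6). Psmb9 was lost in 10, all but those without Erbb3-FF mouse 3 or ERBB3-dIE mouse 5. Within 1 litter none passed, where over all tested genes only 4 were higher in litter A and 6 in litter B. The difference of Psmb9 was 0.56 in litter A and 1.67 in litter B, while that of H2-Q7 was 1.74 and 1.39. Of the litter calls, that of H2-T3 was lost in 3 of the 12 fits, that of H2-Q7 in 5 and those of H2-K1, H2-Q1 and H2-Q4 in 11 each, all but the fit without Erbb3-FF mouse 3.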

How the data were processed

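RNA from ileal mucosal scrapings of 12 mice was sequenced from libraries that mark the strand, as single-end reads of 75 bases, per the labels' protocols. CASAVA, Salmon 1.10.0, DESeq2 and the build GRCm39 are named in the submitters' processing notes, and the annotation release is not given in the sources used here. The authors deposited 1 table with TPM for each library. It also holds the log2 fold change, its standard error and the adjusted p-value of the test that the authors deposited. Each library's TPM sum to the same total, so depth is lost and no count model was fitted.

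TPM columns were matched to mice by name. Genes that reached 1 TPM in 6 or more libraries were tested on log2(TPM + 0.5) with limma 3.58.1 in R 4.3.3 (lmFit and eBayes with a variance trend; litter and genotype as terms; Benjamini-Hochberg adjustment over 12605 genes; threshold 0.05), and litter by genotype in a second model. This scale understates the change of low genes. Values after ± are SD over mice. The subunit ratios were tested with exact permutations within litters. Steps were checked on simulated data with the spread of each gene in these data. The genotype test recovered 24.2% of simulated log2 differences of 0.5, 69.9% of those of 1 and 92.7% of those of 2. Of its calls 5.62% were false. A gene that did not pass is therefore not shown to be unchanged. Genes that passed are named in full, as are the main class I genes in any case, and lists by counts, median and up to 4 genes; 1 gene due by this rule is not reported here. The class I genes and the lists were chosen with earlier results of these data known. Alternatives covered the pseudocount, filter, scaling, variance, weights, terms, covariates, libraries and tests. RefSeq promoters and GENCODE transcripts are of GRCm38, so no other coordinates are given. Protein sequences were not used here. Figures were drawn with matplotlib 3.10.9.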

Additional observations from a re-analysis of the deposited data

Results flagged for a closer look

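In 56 groups of 6 libraries (28 genes in each genotype), the gap of the highest or lowest library to its neighbour, on the log2(TPM + 0.5) scale and relative to the group's range, was large in 2, and chance alone gives about 1 in 20. Nlrc5 of Erbb3-FF mouse 4 lay at 8.06 TPM, with a gap of 0.767 of the range of Erbb3-FF. Psmb10 of Erbb3-FF mouse 3 lay at 224 TPM, with a gap of 0.722.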

How the results depend on the processing

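Against 5 genes higher by genotype there were 2 with no filter, 8 with library weights, 2 without the libraries rich in ribosomal sequence, 1 without the libraries rich in smooth muscle markers, 1 with T cell, 2 with B cell and 9 with smooth muscle markers as a covariate, 9 with quantile normalization and 2 with no litter term. Over all tested genes 209 were higher in the main fit. There were 105 with no filter, 344 with weights, 83 without the ribosomal and 43 without the smooth muscle libraries. With the T cell, B cell and smooth muscle covariates there were 56, 21 and 230, with quantile normalization 359 and with no litter term 87. Litter A or B alone gave 0 class I genes, the permutation test per gene 0 (no adjusted p under 0.05), the authors' deposited test 16 and, chosen after seeing the data, the fit without the 3 libraries rich in B cell markers 0. Over all genes 4 were higher in litter A alone and 6 in litter B alone. The permutation test gave 0, the authors' deposited test 786 and the fit without the B cell libraries 14. Few genes of any kind passed within 1 litter, by permutation or without the B cell libraries, so a 0 there does not single out class I genes. Mouse number as a replicate block gave 9 class I genes without litter as a term, where 217 were higher over all genes. With litter as a term, where 68 were higher over all genes, the block ended the call of Psmb9 (1.04, adjusted p = 0.109). Deviations of same-numbered mice from the main fit had correlations of -0.39 to 0.07 between the 2 genotypes, none best with its own number. That fit ties the deviations within a litter and within a genotype to each other, so these correlations cannot exclude a pairing. By the labels Erbb3-FF mouse 3 was of litter A and ERBB3-dIE mouse 3 of litter B. Leaving out 1 library gave 2 to 7 class I genes, and 95 to 213 over all genes. Against 5 genes higher by litter there were 1 with no filter, 8 at a minimum of 5 TPM, 2 with median-of-ratios scaling, 3 rescaled without mitochondrial and ribosomal sequence, 12 with weights, 0 without the ribosomal or the smooth muscle libraries, 1 with T cell, 0 with B cell and 0 with smooth muscle markers as a covariate, 2 with no genotype term, 0 in Erbb3-FF mice alone, 7 in ERBB3-dIE mice alone and 0 to 12 with 1 library left out. Over all tested genes 902 were higher in litter B in the main fit. There were 219 with no filter, 927 at 5 TPM, 447 and 421 with those scalings and 1847 with weights. Without the ribosomal libraries there were 4, without the smooth muscle libraries 0, and with the T cell, B cell and smooth muscle covariates 73, 0 and 0. With no genotype term there were 261, in Erbb3-FF mice alone 3, in ERBB3-dIE mice alone 500 and with 1 library left out 97 to 1982. The log2 ratios of Psmb8, Psmb9 and Psmb10 missed the threshold in litter A alone (0.37, 0.46 and 0.11) and litter B alone (1.61, 1.55 and 0.91), and ranged with 1 mouse left out from 0.88 to 1.11, 0.92 to 1.1 and 0.45 to 0.57. No gene that passed changed sign under these alternatives. Of genes not past the threshold, 8 did by genotype and 12 by litter. The cause of these changes was not tested. TPM hide the depth, so counting error is unknown.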
